A study of Mus musculus with 15 samples.

Results

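The 10 genes described here, *Fos*, *Fosb*, *Junb*, *Egr1*, *Egr2*, *Npas4*, *Nr4a1*, *Arc*, *Dusp1* and *Ier2*, are immediate early genes, whose transcripts are known markers of recent neuronal activity in cortex. They were chosen by symbol and not by a rule on their measured values, though earlier results of these data were known. All 10 were found among the 23235 genes of an RNA-seq table of mouse cortex. For each gene the table held 1 FPKM value (fragments per kilobase of transcript, scaled to the size of the library) in each of 4 groups. FPKM is a level per length, so the levels of different genes could be set side by side.

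The study compared wild-type (WT) C57BL/6J mice with *Snord116del* (+/-) mice of strain B6(Cg)-Snord116tm1.1Uta/J, which carry a paternal deletion of the *Snord116* cluster and so lack the long noncoding RNA *116HG* made from it. Cortex was taken from adult males in the light phase, at Zeitgeber time (Zt) +6 h, and in the dark phase, at Zt +16 h. The WT Zt +6 group had 3 mice, and the *Snord116del* Zt +6, WT Zt +16 and *Snord116del* Zt +16 groups had 2 mice each. The study describes the WT mice as littermates. The deletion is inherited, so it was not limited to neurons or to cortex. In a second assay, ChIRP-seq, biotinylated oligos pulled *116HG* and its attached DNA out of chromatin from adult brain, with 2 WT libraries and 3 control libraries.

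Immediate early genes are switched on within minutes of synaptic input, before any new protein is made. Calcium entry and MAP kinase signalling activate factors already bound at their promoters, chiefly CREB at cAMP response elements (CRE) and serum response factor with its ternary complex partners at CArG boxes. Their transcripts are short-lived. Many encode transcription factors that switch on a later set of genes, while others act directly at the synapse or damp the signal. In cortex they are known to be higher in waking than in sleep, and mice, being nocturnal, sleep mostly in the light phase.

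The authors pooled the mice of a group into 1 value, so the spread between mice could not be seen and no test was run on these values. The q-values of the authors' own genotype comparison were not used. Differences are given as descriptions of these 4 groups. The number of reads behind a value was not given in the table. A gene was counted as higher or lower where its FPKM + 1 differed at least 1.5-fold between groups and reached 1 FPKM in the higher group, among the 10297 genes that averaged 1 FPKM or more over the groups. All 10 immediate early genes passed that filter, *Egr2* narrowly with an average of 1.01 FPKM, which was 0.629 FPKM without the *Snord116del* Zt +6 group. The groups stood on different scales. The median FPKM of tested genes was 3.17 in WT Zt +6, 5.63 in *Snord116del* Zt +6, 2.90 in WT Zt +16 and 4.00 in *Snord116del* Zt +16. Each change is therefore given as deposited and again after the groups were set to a common median (factors 1.24, 0.697, 1.35 and 0.980), which moved the median change over all tested genes from 0.57 to -0.06 at Zt +6 and from 0.35 to 0.01 at Zt +16 on the log2 scale. *Snord116*, the deleted gene, was listed at 0 FPKM in all 4 groups and so gave no check of the labels. *Gapdh*, the reference transcript of the study's qPCR, ranged from 843 to 3368 FPKM. All 13 cortical neuron markers looked for passed the filter, among them *Slc17a7* at 60.3 to 127 FPKM. In bulk tissue, fewer cells of a type and less RNA per cell cannot be told apart.

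Promoter sequences were searched for the elements named above. RefSeq promoter windows (build GRCm38.p6, 250 bases before to 50 after a start site) were found for 7 of the 10 genes and were placed on mm9 by exact and unique match. The 4 stretches printed here, all upstream of the start site, were chosen because they hold between them the short CRE, the full CRE and the CArG box. Capitals mark the short CRE TGACG (or its reverse complement CGTCA), the full CRE TGACGTCA, the CArG box and, in *Fos*, the TATA box TATAAA.
Fos, chr12:86814701-86814839, plus strand: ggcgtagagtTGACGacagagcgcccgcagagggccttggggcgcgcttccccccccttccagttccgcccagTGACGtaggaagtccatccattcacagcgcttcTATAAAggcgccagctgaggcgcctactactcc
Npas4, chr19:4989972-4990160, minus strand: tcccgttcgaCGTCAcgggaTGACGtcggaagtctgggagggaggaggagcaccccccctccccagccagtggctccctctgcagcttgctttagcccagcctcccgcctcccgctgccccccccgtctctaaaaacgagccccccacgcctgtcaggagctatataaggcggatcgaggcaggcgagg
Dusp1, chr17:26645418-26645618, minus strand: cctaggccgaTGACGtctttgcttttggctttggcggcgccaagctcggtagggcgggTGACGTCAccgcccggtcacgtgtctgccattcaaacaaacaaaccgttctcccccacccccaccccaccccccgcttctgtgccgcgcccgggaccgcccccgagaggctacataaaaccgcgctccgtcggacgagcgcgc
Egr2, chr10:67000496-67000616, plus strand: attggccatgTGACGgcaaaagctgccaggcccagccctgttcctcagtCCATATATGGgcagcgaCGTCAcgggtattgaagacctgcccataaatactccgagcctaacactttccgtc

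A short CRE was present in the windows of all 7 genes, against 23.0% of the 27025 genes with a window and 20.8% of the 32851 windows. It stood 129 and 66 bases before the start site of *Fos*, 179 and 169 bases before that of *Npas4*, 60 bases before that of *Fosb* and 106 bases before that of *Junb*, and *Nr4a1* had 4 copies. The full CRE, which contains a short CRE on each strand, was present in *Dusp1* alone, 143 bases before its start, against 2.03% of genes. Of the 7 genes, only *Egr2* had a CArG box within its windows, against 1.81% of genes. It stood 72 bases before the start printed here and between 2 short CREs. Another *Egr2* window held a different CArG box, 72 bases before its own start. The windows end 250 bases before a start site, so elements further upstream were not searched, and *Arc*, *Egr1* and *Ier2* had no window. An AP-1 site (TGANTCA), the element that FOS and JUN proteins bind, was in none of the 7 windows, against 8.97% of genes. An EGR site (GCGNGGGCG) was in 2 windows, *Fosb* and *Nr4a1*, against 6.27% of genes, and TATAAA was in 2, *Fos* and *Junb*, against 15.7% of genes. All motifs were searched on both strands, and *Egr2* had several windows, some of them overlapping, of which the first with both elements is printed.

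**Figure D1:**
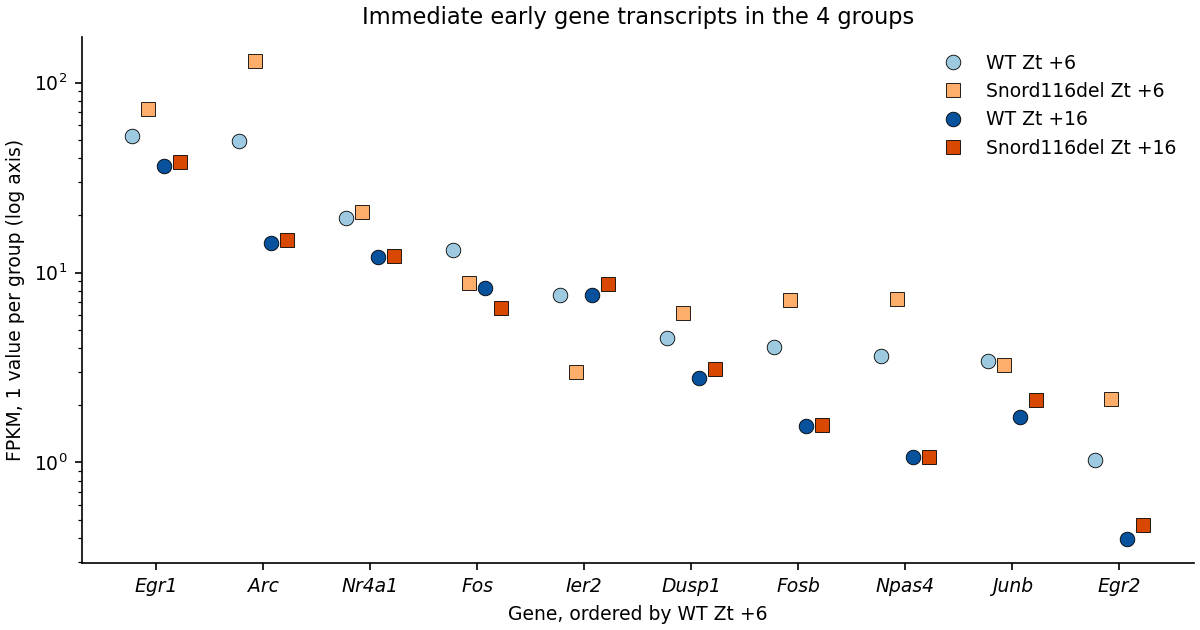
FPKM (log axis) of each immediate early gene in the 4 groups, 1 point per group, with no error bars because the table holds 1 value per group. *Egr1*, *Arc* and *Nr4a1* led in every group, *Arc* stood apart at 130.4 FPKM in *Snord116del* Zt +6, and *Ier2* was the gene whose lowest value, 2.98 FPKM, fell in that group.

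The AP-1 transcription factors *Fos*, *Fosb* and *Junb* stood between 1.56 and 13.1 FPKM. *Fos* (mm9 chr12:86814840-86818223, plus strand), whose protein pairs with JUN proteins to form AP-1, stood at 13.1 FPKM in WT Zt +6, 8.80 in *Snord116del* Zt +6, 8.25 in WT Zt +16 and 6.47 in *Snord116del* Zt +16. It was the gene of the 10 that was lower in *Snord116del* at both times, though by less than the fold as deposited, with log2 changes of -0.52 at Zt +6 (0.14 with the groups at the same *Gapdh*) and -0.31 at Zt +16. On the common median these were -1.27 and -0.73. *Fosb* (chr7:19888070-19895394, minus strand), a FOS relative with a more lasting protein product, stood at 4.06, 7.14, 1.56 and 1.57 FPKM in the same order. Its value was 1.76 times the WT value in *Snord116del* at Zt +6 and 1.01 times at Zt +16. On the common median that Zt +6 difference was -0.01, so its direction depended on the scale. *Junb* (chr8:87500811-87502617, minus strand), a member of the JUN family, stood at 3.42, 3.27, 1.74 and 2.13 FPKM. As deposited, the 3 genes were higher at Zt +6 than at Zt +16 in both genotypes, though the time difference of *Fos* in *Snord116del* was 0.04 on the common median and that of *Junb* was 0.12 under 1 setting. As deposited, their genotype differences did not share a direction, while on the common median all 3 were negative at both times.

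Of the EGR zinc finger factors, *Egr1* was the most abundant of the 10 transcripts in all groups but *Snord116del* Zt +6, and *Egr2* the least abundant in all 4. *Egr1* (chr18:35020861-35024638, plus strand), which is known for its role in lasting plasticity, stood at 52.6 FPKM in WT Zt +6, 72.8 in *Snord116del* Zt +6, 36.3 in WT Zt +16 and 38.1 in *Snord116del* Zt +16. Its genotype difference at Zt +6, 0.46 on the log2 scale, stayed under the fold and was -0.35 on the common median. An annotated gene on the other strand, *Gm17507*, overlaps *Egr1*, and since counting by strand is not given in the sources used here, its reads cannot be separated from those of *Egr1*. *Egr2* (chr10:66998223-67004936, plus strand), also known for myelination in peripheral nerve, stood at 1.02, 2.17, 0.396 and 0.467 FPKM, so that 2 of its 4 values were under 1 FPKM.

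*Npas4* and *Nr4a1* are the factors of the set that stand outside these families. *Npas4* (chr19:4984355-4989971, minus strand), a bHLH-PAS factor induced by calcium entry and little by other stimuli, stood at 3.62 FPKM in WT Zt +6, 7.23 in *Snord116del* Zt +6, 1.07 in WT Zt +16 and 1.07 in *Snord116del* Zt +16. The *Snord116del* value was 1.99 times the WT value at Zt +6 and 1.00 times at Zt +16, and the Zt +16 value was 0.295 times that at Zt +6 in WT. *Nr4a1* (chr15:101097277-101105223, plus strand), an orphan nuclear receptor also called Nur77, stood at 19.4, 20.9, 12.1 and 12.2 FPKM and held the third place of the 10 in every group. Its genotype differences as deposited were 0.10 at Zt +6 and 0.01 at Zt +16 on the log2 scale, and on the common median they were -0.69 and -0.43.

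The remaining genes encode proteins other than DNA-binding factors. *Arc* (chr15:74499513-74503000, minus strand), whose product acts at the synapse in AMPA receptor endocytosis, stood at 49.5 FPKM in WT Zt +6, 130.4 in *Snord116del* Zt +6, 14.4 in WT Zt +16 and 14.8 in *Snord116del* Zt +16. It had the widest range of the 10. *Arc* made up 31.2% of the summed FPKM of the 10 genes in WT Zt +6, 49.8% in *Snord116del* Zt +6 and 16.7% in both Zt +16 groups. *Dusp1* (chr17:26642535-26645464, minus strand), a phosphatase that switches off MAP kinases, stood at 4.55, 6.16, 2.79 and 3.11 FPKM. *Ier2* (chr8:87185230-87186751, minus strand), a nuclear protein of the early growth response and the shortest transcript of the set, stood at 7.65, 2.98, 7.59 and 8.68 FPKM. Its 3 other groups thus lay between 7.59 and 8.68 FPKM, with *Snord116del* Zt +6 below them.

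The first question was how loss of *Snord116* altered these transcripts in the light phase. At Zt +6, *Arc*, *Npas4*, *Fosb* and *Egr2* were higher in *Snord116del* than in WT, with log2 changes of 1.38, 0.83, 0.69 and 0.65, and *Ier2* was lower (-1.12). That is 4 of 10 higher, *Egr2* having passed the filter only through that group, where 49.3% of all tested genes were higher, and 1 of 10 lower, where 7.62% were lower. The median change of the 10 was 0.42, against 0.57 over all tested genes. The share of higher genes was no larger than that of the table as a whole. On the common median none of the 10 was higher (15% of tested genes were) and 4 were lower, *Fos*, *Junb*, *Nr4a1* and *Ier2* (24.4% of tested genes were), with a median of -0.34 against -0.06. *Arc*, *Egr2* and *Npas4* were above 0 under every setting that gave them a value, with *Arc* from 0.56 to 2.10, *Egr2* from 0.12 to 1.28 and *Npas4* from 0.14 to 1.53. *Ier2* was below 0 under every setting, from -1.90 to -0.57. Each of the other 6 genes had at least 1 setting that turned the direction.

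In the dark phase the same comparison gave small differences. At Zt +16, none of the 10 was higher and none was lower in *Snord116del*, where 19% of tested genes were higher and 0.204% lower. The log2 changes ran from -0.31 for *Fos* to 0.19 for *Junb*, and those of *Npas4*, *Nr4a1* and *Fosb* lay within 0.01 of 0. The median of the 10 was 0.06, against 0.35 over all tested genes, and each of the 10 lay below that all-gene median. On the common median all 10 changes were negative, from -0.73 for *Fos* to -0.08 for *Egr2*. Only *Fos* was lower by the fold on that scale, where 1.22% of tested genes were higher and 0.515% lower. *Arc* was the gene whose genotype difference moved most between the times in the positive direction, by 1.33 on the log2 scale, and *Ier2* the one that moved most in the negative direction, by -1.29. Whether the genotype difference itself differed between times could not be tested.

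**Figure D2:**
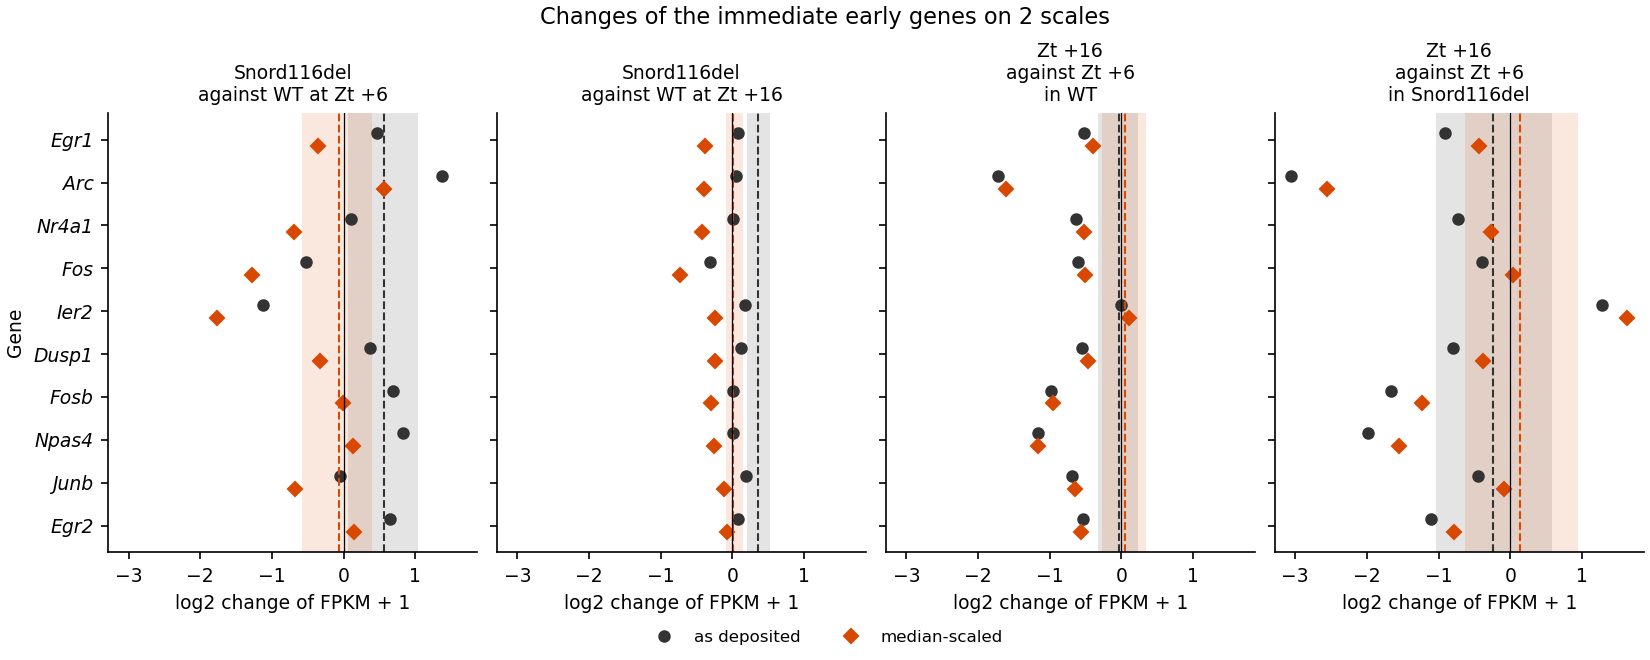
Log2 change of FPKM + 1 of each immediate early gene in the 4 comparisons, as deposited (grey circles) and with the groups at a common median (orange diamonds). Dashed lines give the median over all 10297 tested genes and shaded bands their interquartile range. In WT over time 9 of 10 diamonds lie left of the zero line with *Ier2* at 0.10, while at Zt +6 the genotype differences move across that line with the scale.

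The other question was how the transcripts differed between light and dark. In WT, all 10 values were lower at Zt +16 than at Zt +6, where 5522 of the 10297 tested genes had a change below 0. For the 10 genes that is the reverse of the direction that higher levels in waking would give in a nocturnal animal. The reason was not tested. The difference passed the fold for 6 of 10, *Arc* (-1.72), *Npas4* (-1.16), *Fosb* (-0.98), *Junb* (-0.69), *Nr4a1* (-0.64) and *Fos* (-0.61), and 10.3% of tested genes were lower. None was higher, where 5.71% of tested genes were. The median was -0.62 against -0.04 over all tested genes. *Egr1*, *Egr2* and *Dusp1* lay just short of the fold, at -0.52, -0.54 and -0.55, and *Ier2* stood at -0.01. Of the 4 comparisons, the median of the 10 moved least here when the groups were set to the common median, to -0.54 against 0.06 over all tested genes. On that scale *Arc*, *Npas4*, *Fosb* and *Junb* were lower, 4 of 10 where 9.48% of tested genes were lower and 10.8% higher. The count of lower genes differed more between other scales. Each of the 10 except *Ier2* was below 0 in WT under every setting that gave it a value. *Arc* in WT ran from -2.15 to -1.49 over those settings.

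In *Snord116del*, 9 of the 10 values were also lower at Zt +16 than at Zt +6, *Ier2* being the exception. Of the 10297 tested genes, 5967 had a change below 0 there. Past the fold, 7 of 10 were lower, *Arc* (-3.05), *Npas4* (-1.99), *Fosb* (-1.66), *Egr2* (-1.11), *Egr1* (-0.92), *Dusp1* (-0.80) and *Nr4a1* (-0.73), where 39.1% of tested genes were lower. *Ier2* was higher (1.28), 1 of 10 where 25% of tested genes were higher. *Arc* at Zt +16 was 0.114 times its Zt +6 value in *Snord116del* and 0.290 times in WT. The median of the 10 was -0.86 against -0.24 over all tested genes. *Fos* (-0.39) and *Junb* (-0.45) lay closer to 0 than in WT. On the common median *Arc*, *Npas4*, *Fosb* and *Egr2* were lower and *Ier2* higher, where 26.5% of tested genes were lower and 35% higher. The median of the 10 on that scale was -0.41, against -0.54 in WT, with *Nr4a1* at -0.27 and *Fos* at 0.04, so the size relative to WT depended on the scale. The 4 comparisons share groups, so a value that is high in *Snord116del* Zt +6 enters both the genotype difference at that time and the time difference in that genotype, and they are not separate evidence. Some marker lists also moved between the times, while others did not or split. The summed FPKM of 4 choroid plexus markers was 202 and 185 in the WT and *Snord116del* groups at Zt +6 and 25.9 and 30.8 at Zt +16, almost all of it *Ttr*, with the other 3 markers at 2.20 FPKM or less in each group. The summed FPKM of 5 blood markers was 280.0 and 327 at Zt +6 and 1082 and 1159.55 at Zt +16, with *Hba-a1* at 0 in all groups. *Hba-a2* and *Hbb-b2* were higher at Zt +16 in both genotypes, whereas *Hbb-b1* stood at 36.8 and 89.4 FPKM at Zt +6 and at 18.9 and 26.0 at Zt +16. The 7 astrocyte markers were all below 0 over time, with 5 lower in WT (median -0.88) and 6 lower in *Snord116del* (median -1.78), and summed to 102 and 314 FPKM at Zt +6 and 54.9 and 80.6 at Zt +16. Of the 13 cortical neuron markers, 5 were lower over time in WT and 6 in *Snord116del*, and none was higher. Of all tested genes, 10.3% were lower in WT and 39.1% in *Snord116del*. No microglia or striatum marker passed the fold over time in WT, where 1 endothelium marker was lower. In *Snord116del*, 1 microglia, 3 striatum and 5 endothelium markers were lower, and 2, 1 and 1 higher. Of the 6 oligodendrocyte markers, 1 was lower and 1 higher in WT, and 3 were lower and 3 higher in *Snord116del*. The part of these marker lists in the time differences was not tested.

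The rank of a gene among the tested genes of its own group does not change when that group is multiplied by a constant. By rank, all 10 genes stood lower at Zt +16 than at Zt +6 in WT, with a median difference of -10.2 percentile points against -10.5 in *Snord116del*, though *Ier2* moved only from 73.8 to 73.4. *Npas4* went from percentile 54.3 to 19.8, *Fosb* from 57.7 to 32.1 and *Arc* from 95.1 to 83.2. Between genotypes at Zt +16, all 10 also stood lower in *Snord116del*, with a median difference of -5.39 points, with *Fos* at 74.8 in WT and 62.1 in *Snord116del*. At Zt +6 the 10 split, with 5 higher and 5 lower in *Snord116del*. The 5 higher, *Egr2*, *Arc*, *Egr1*, *Npas4* and *Fosb*, had the longest transcripts of the 10 (2965 to 3751 bases). Rank does not set aside a change that goes with transcript length. *Arc* went from 95.1 to 98.5 and *Npas4* from 54.3 to 59.1, whereas *Ier2* went from 73.8 to 23.6, *Junb* from 52.4 to 27.2 and *Fos* from 83.4 to 65.9.

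**Figure D3:**
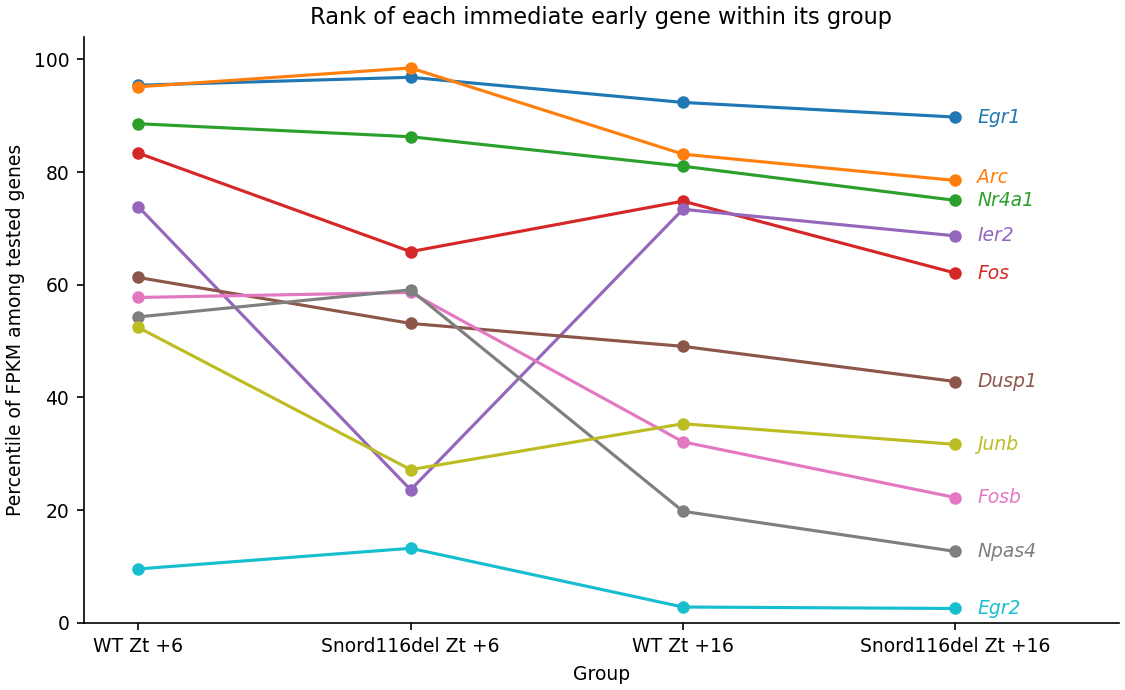
Percentile of each immediate early gene's FPKM among the 10297 tested genes of the same group, with lines joining the values of 1 gene across the groups. *Ier2* drops from 73.8 to 23.6 in *Snord116del* Zt +6 and stands at 73.4 and 68.7 in the Zt +16 groups, while *Npas4* and *Fosb* stand well above their Zt +16 percentiles in both Zt +6 groups.

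The genotype differences at Zt +6 went with transcript length. *Ier2*, with the shortest transcript (1522 bases, longest annotated form), had the lowest genotype change. *Junb* (1807 bases), *Fos* (2108), *Dusp1* (2313) and *Nr4a1* (2474) lay between -0.52 and 0.37. *Egr2* (2965), *Arc* (3054), *Egr1* (3100), *Npas4* (3277) and *Fosb* (3751) lay between 0.46 and 1.38. Across the 10 genes, Spearman's rho of the change with length was 0.867 at Zt +6, -0.491 at Zt +16, -0.467 over time in WT and -0.867 over time in *Snord116del*. Over the 10074 tested genes with a length the values were 0.628, -0.379, -0.486 and -0.618, in the same order. Genes are not independent replicates and the comparisons share groups, so these are descriptions. The 10 genes thus followed the table in sign in each comparison. With GC content of the transcript, rho at Zt +6 was -0.152 over the 10 genes and -0.391 over 9856 tested genes.

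**Figure D4:**
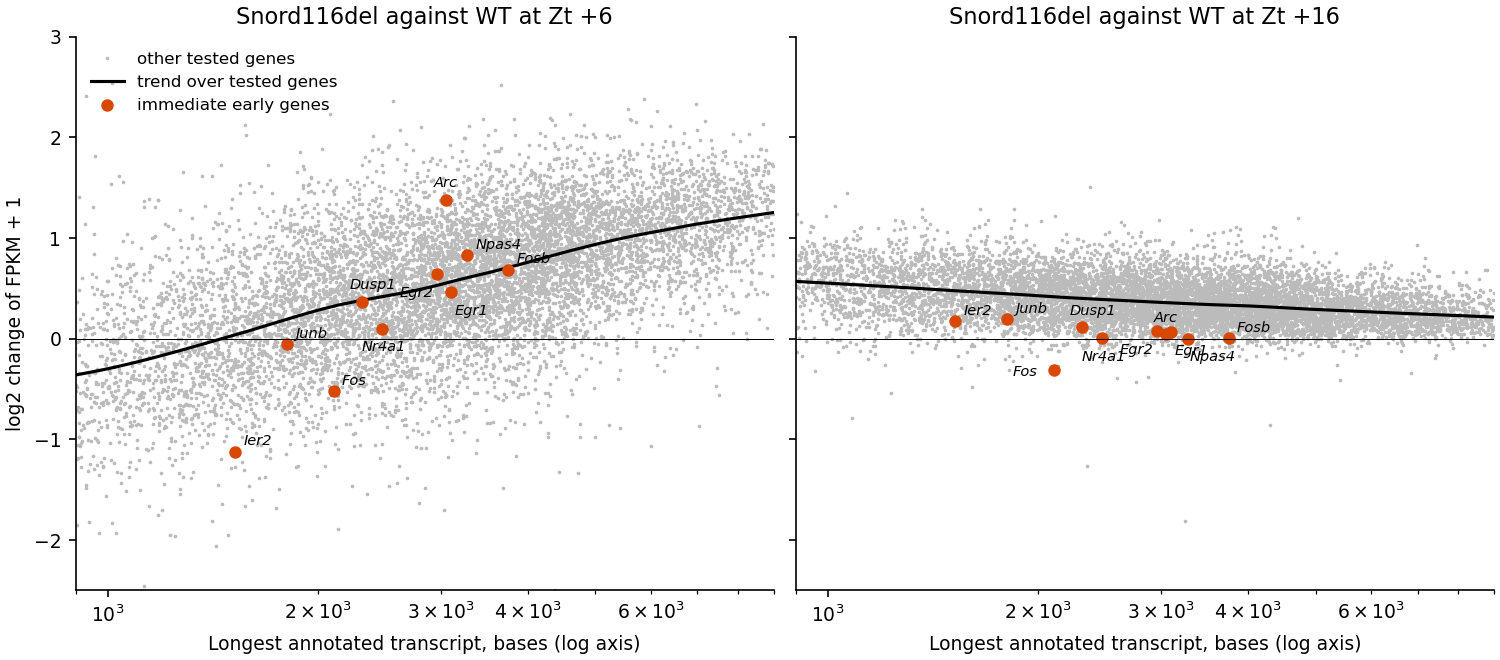
Log2 change of FPKM + 1 in *Snord116del* against WT by length of the longest annotated transcript (log axis) at Zt +6 and Zt +16, for the immediate early genes (orange) and the other tested genes within the axes (grey), with the trend over all tested genes as a black line. At Zt +6 the trend climbs with length and *Arc* sits 0.82 above it, with *Fos* and *Ier2* 0.85 and 1.16 below it. At Zt +16 all 10 lie below the trend.

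With the trend over length taken off, *Arc* at Zt +6 stood 0.82 above the level of tested genes of its length on the log2 scale. *Npas4* (0.22) and *Egr2* (0.12) were close to that level, as were *Dusp1* (-0.01), *Fosb* (-0.02) and *Egr1* (-0.10). *Junb* (-0.24) and *Nr4a1* (-0.32) were somewhat below it, and *Fos* (-0.85) and *Ier2* (-1.16) were lower by the fold. At Zt +16 all 10 residuals were negative, from -0.72 for *Fos* to -0.25 for *Junb*. Over time in WT all 10 residuals were negative as well, with *Arc* at -1.70, *Npas4* at -1.12 and *Ier2* at -0.19.

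Transcripts of the signalling that drives these genes were looked at next, from lists of known pathway members. Of the transcription factors and coactivators that switch immediate early genes on, 13 of 16 passed the filter. At Zt +6, 12 of the 13 were higher in *Snord116del* and none lower, with a median log2 change of 1.45, where 49.3% of all tested genes were higher with a median of 0.57. On the common median 7 were higher and 1 lower (0.76), where 15% of tested genes were higher and 24.4% lower. *Creb1* and *Crtc3* passed the filter only through the *Snord116del* Zt +6 group. *Mef2c*, a neuronal MADS-box factor, stood at 8.97 FPKM in WT and 37.5 in *Snord116del*, and *Ep300*, a histone acetyltransferase and CREB coactivator, at 3.52 and 14.5. The exception was *Srf*, the CArG box factor itself, at 5.79 and 5.73 FPKM. *Srf* is named because it was the one of the 13 outside that count. At Zt +16, 1 of the 13 was higher, *Mkl1*, an SRF coactivator (3.24 FPKM in WT and 5.72 in *Snord116del*), where 19% of tested genes were. In WT, 7 of the 13 were lower at Zt +16 than at Zt +6 and none higher, with a median of -0.66, where 10.3% of tested genes were lower. *Mef2a* stood at 3.06 FPKM at Zt +6 and 0.312 at Zt +16.

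Of the MAP kinase and calcium signalling enzymes, 25 were listed, 24 were in the table and 22 passed the filter. Of the 22, 18 were higher and none lower in *Snord116del* at Zt +6 (median 1.11), where 49.3% of all tested genes were higher. On the common median 8 were higher and 2 lower (median 0.45), where 15% of tested genes were higher and 24.4% lower. *Camk4*, a nuclear kinase of CREB, went from 4.18 FPKM in WT to 19.4, and *Ppp3ca*, the catalytic subunit of calcineurin, from 20.5 to 68.1. At Zt +16, 6 of the 22 were higher, where 19% of all tested genes were. Over time in WT none of the 22 was higher and 6 were lower, where 5.71% of tested genes were higher and 10.3% lower. *Ppp3ca* was among the 6 (20.5 FPKM at Zt +6 and 6.57 at Zt +16). On the common median 1 was higher and 3 were lower, where 10.8% of tested genes were higher and 9.48% lower. Of 7 factors that act on mRNA stability or as EGR corepressors, 6 passed the filter and 5 were higher at Zt +6, where 49.3% of all tested genes were. An example is *Cnot1*, the scaffold of the main deadenylase (3.25 and 10.5 FPKM). The tested gene outside that count was the EGR corepressor *Nab2*, at 11.1 FPKM in WT and 7.66 in *Snord116del* (log2 change -0.48). Over time in WT none of those 6 was higher or lower, where 5.71% of tested genes were higher and 10.3% lower. The immediate early genes, with 4 of 10 higher at Zt +6, thus had a smaller share past the fold than their upstream lists, a comparison that was not tested. The lists were not matched for transcript length, with which the change at Zt +6 went over all tested genes (rho 0.628).

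Further immediate early genes were followed in a list of 34, of which 28 passed the filter. At Zt +6, 8 were higher and 3 lower in *Snord116del*, where 49.3% of all tested genes were higher and 7.62% lower. The median was 0.40, close to the 0.42 of the 10 genes. On the common median 4 were higher and 9 lower, where 15% of tested genes were higher and 24.4% lower. Of the 28, 3 passed the filter only through the *Snord116del* Zt +6 group. *Homer1*, a postsynaptic scaffold whose short form is the activity-induced one, stood at 11.3 FPKM in WT and 53.5 in *Snord116del*. The value is for the gene as a whole and does not separate the forms. *Egr4*, a further EGR factor, stood at 29.0 and 7.05 FPKM. Over time in WT 7 were lower and 1 higher (median -0.28), where 10.3% of tested genes were lower and 5.71% higher. *Nr4a2*, a relative of *Nr4a1*, stood at 7.31 FPKM in WT Zt +6 and 1.10 in WT Zt +16. In *Snord116del* 11 were lower and 5 higher over time, where 39.1% of tested genes were lower and 25% higher. *Homer1* went from 53.5 to 4.86 FPKM in that comparison. Spearman's rho of the change with transcript length over these 28 genes was 0.550 at Zt +6. At Zt +16, 2 of the 28 were higher in *Snord116del*, *Gadd45g* and *Ier3*, and none lower. Of all tested genes, 19% were higher there and 0.204% lower.

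The later activity-regulated genes, which immediate early factors help to switch on, were 20 of 22 past the filter. At Zt +6, 13 of the 20 were higher in *Snord116del* and none lower (median 0.84, and on the common median 4 higher, 4 lower and 0.18). The share of all tested genes that were higher was 49.3%, and on the common median 15% were higher and 24.4% lower. *Nrn1*, a neurite growth factor, stood at 16.2 FPKM in WT and 46.2 in *Snord116del*. *Inhba*, a subunit of activin, stood at 0.613 and 3.90, and at 0.303 and 0.398 in the Zt +16 groups, so it passed the filter only through the group where it was high. At Zt +16, 4 of the 20 were higher, near the 19% over all tested genes. Over time in WT 2 of the 20 were lower and 3 higher (median -0.13), where 10.3% of tested genes were lower and 5.71% higher. The share of lower genes was thus near that of all tested genes. By sign, 12 of the 20 were below 0 and 8 above, whereas all 10 immediate early genes were below 0. *Pcsk1*, a prohormone convertase, went from 2.54 to 0.579 FPKM, whereas *Penk*, the enkephalin precursor, went from 145 to 264.

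Lists of cell type markers were set beside the genotype difference at Zt +6, where 49.3% of all tested genes were higher. Of 13 cortical neuron markers 8 were higher in *Snord116del* and none lower, and their summed FPKM was 721 in WT and 1031 in *Snord116del*. All 7 astrocyte markers were higher, with a summed FPKM of 102 and 314 and a median log2 change of 1.47. The 6 striatum markers, 5 of which passed the filter and were higher, summed to 26.8 and 75.9 FPKM. Of the other lists, 5 of 6 endothelium markers (8.02 and 23.3 FPKM), 4 of 7 microglia markers (68.4 and 100.4 FPKM) and 3 of 6 oligodendrocyte markers (445 and 703 FPKM) were higher, and 1 of the 2 tested hippocampus markers (3.88 and 7.27 FPKM for all 4). Several of these shares were near that of all tested genes, and on the common median the list medians were -0.14 for neurons, -0.14 for microglia and -0.08 for oligodendrocytes, against 0.69 for astrocytes, 0.59 for striatum and 0.46 for endothelium. Of the 6 endothelium markers, 3 passed the filter only through the *Snord116del* Zt +6 group. The part of cell composition in the differences of the immediate early genes was not tested. The summed FPKM of the 10 immediate early genes themselves was 159 in WT Zt +6, 262 in *Snord116del* Zt +6, 86.2 in WT Zt +16 and 88.7 in *Snord116del* Zt +16.

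The genes whose pattern over the 4 groups lay nearest to the median pattern of the 10 were *Gm129*, *Sh3bp5*, *Tyms*, *Sat1* and *Vcam1*, out of 5543 tested genes with a range of at least 1 on the log2 scale. Likeness was the Euclidean distance between centred log2(FPKM + 1) values over the 4 groups, and was 0.195 for *Gm129* and 0.250 for *Vcam1*. *Gm129* stood at 1.75 FPKM in WT Zt +6, 2.50 in *Snord116del* Zt +6, 0.626 in WT Zt +16 and 0.981 in *Snord116del* Zt +16.

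The ChIRP-seq peak lists were searched for *116HG* peaks within 2 kb of the 10 genes. WT *116HG* replicate 1 had a peak at 10 of 10 genes, from 2 at *Fosb*, *Junb*, *Egr2* and *Ier2* to 9 at *Nr4a1*, but 93.6% of the 10074 tested genes with a position had one. WT *116HG* replicate 2 had none at the 10 genes, where 17.4% of tested genes had one. The *Snord116del* *116HG* library (2.88% of tested genes) and the WT library made with non-specific control (NSC) oligos (2.51%) had none either. The *Snord116del* NSC library had 2 peaks at *Junb* and 1 at *Ier2*, where 10.6% of tested genes had a peak. No peak at these genes was therefore found in both WT *116HG* libraries.

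The replicate 1 peaks lay mostly over exons. They covered 47.8% of the exon bases and 2.81% of the intron bases of the 10 genes pooled, against 27.8% and 0.374% over all tested genes. Of the 10 genes 3 had 50% or more of their exon bases under peaks, against 20.4% of tested genes. The peak with the greatest fold over input was at *Arc*, chr15:74500985-74503012, 2028 bases wide and 389.9-fold over input by the authors' value, against a median of 55.3 for the list. Together the 3 *Arc* peaks covered 100% of its exon bases. The covered share was 98.1% in *Egr1*, 83.5% in *Nr4a1*, 49.4% in *Fos*, 35.6% in *Dusp1*, 34.2% in *Npas4*, 24.8% in *Junb*, 19.4% in *Fosb*, 19.3% in *Ier2* and 6.92% in *Egr2*. Its order was close to that of the transcript levels, with a Spearman's rho with the WT Zt +6 FPKM of 0.830 over the 10 genes and 0.689 over 10074 tested genes. The *Snord116del* NSC peaks, made with oligos not aimed at *116HG*, covered 71.5% of the exon bases of *Junb* and 12.9% of those of *Ier2*, the genes of the 10 without introns. The measure of exon cover was chosen after the peaks had been seen, and what the cover reflects was not tested.

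**Figure D5:**
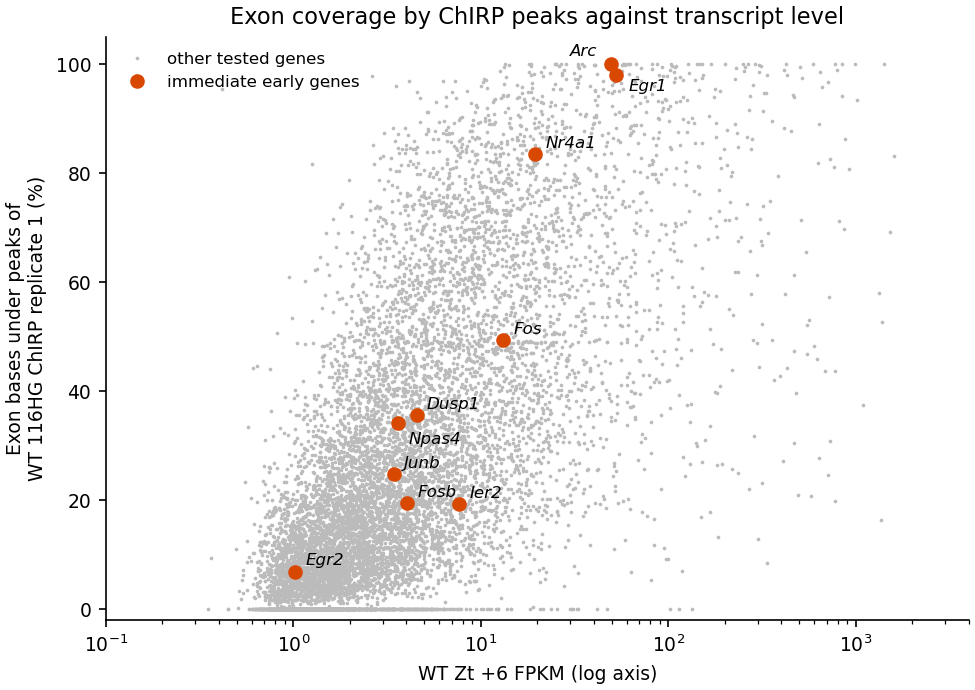
Share of a gene's exon bases under peaks of WT *116HG* ChIRP replicate 1 (%) against its FPKM in WT Zt +6 (log axis), for the immediate early genes (orange, named) and the other tested genes (grey). *Arc*, *Egr1* and *Nr4a1*, the most abundant of the 10, have 100%, 98.1% and 83.5% of their exon bases covered, and *Egr2*, the least abundant, has 6.92%.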

How the data were processed

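Cortical RNA-seq of 9 mice in 4 groups and ChIRP-seq peaks of 5 brain libraries were analysed, and groups followed the labels. For RNA-seq, the authors aligned reads to mm9 with TopHat2 2.0.5 and deposited 1 Cuffdiff 2.0.2 FPKM per group and gene, with mice pooled, so neither the reads behind a value nor the spread between mice can be read from the table. The deposited columns of the authors' own comparison (log2 fold change, q-value and call) were not used, and there were 0 unused columns of per-sample values. For ChIRP-seq, the authors aligned reads with Bowtie2 2.0.0, called peaks with MACS 1.4.2 per library and filtered them on false discovery rate and on fold over a WT input library. Peak heights are the deposited ratio of ChIRP to input, and the list of WT *116HG* replicate 2 holds positions only. The input library has no peak list and was not used.

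The 10 genes, the other lists and the alternatives were chosen with earlier results of these data known. Changes are log2(FPKM + 1) differences, which understate those of low genes, counted at 1.5-fold with at least 1 FPKM in the higher group, over genes averaging 1 FPKM or more. Groups were set to a common median as the second scale. Transcript lengths, positions and exons came from GENCODE for NCBIM37, the assembly of mm9, matched by symbol (97.8% of tested genes), and the length trend was a lowess fit over tested genes. Promoter windows came from RefSeq (GRCm38.p6) and were placed on NCBIM37 by exact match. The genes named are the 10, up to 2 per list and comparison with the largest change past the fold, and 5 pattern neighbours. Other names, such as *Srf*, *Slc17a7* and *Gm17507*, were added after values were seen, and 1 list example is not reported here. The fold rule and the scaling to a common median were tested on simulated data, and the other steps were not. Alternatives covered the scale, the length trend, the pseudocount, the filter, the fold and the peak threshold. The lowess fit used statsmodels 0.14.6, tables pandas 2.3.3, ranks scipy 1.17.1 and plots matplotlib 3.10.9, all in Python 3.11.15.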

Additional observations from a re-analysis of the deposited data

Results flagged for a closer look

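The genotype change of *Ier2* took opposite directions at the 2 times as deposited, past the fold at Zt +6. It was -1.12 at Zt +6 and 0.17 at Zt +16 on the log2 scale, a difference of -1.29. For the same reason its time change was 1.28 in *Snord116del* and -0.01 in WT, a difference of 1.29. Both differences are the same 4 values read in 2 ways, and with 1 value per group neither was tested. On the common median the genotype change of *Ier2* was negative at both times, -1.77 at Zt +6 and -0.25 at Zt +16. The opposite direction at Zt +16 thus depended on the scale.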

How the results depend on the processing

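No paired analysis was possible because the table holds 1 value per group and no value per mouse, and leaving out a mouse was not possible for the same reason. Against 4 higher and 1 lower at Zt +6, the counts of the 10 genes were 0 and 4 with the groups at the same median, 1 and 2 at the same upper quartile, 1 and 3 after quantile normalization, 7 and 0 at the same *Gapdh*, and 1 and 2 with the length trend removed. At 5 as the pseudocount, with the filter at 5 FPKM (5 genes left) and at 2-fold, 1 was higher. At Zt +16, against none, 1 was lower at the same median, the same upper quartile, after quantile normalization and with the length trend removed, 2 at the same total and 5 at the same *Gapdh*. Over time in WT, against 6 lower, 1 was lower at a pseudocount of 5, 3 with the filter at 5 FPKM and 2 at 2-fold. There, 4 were lower at the same median, 8 at the same upper quartile, and 9 at the same total and at the same *Gapdh*. Over time in *Snord116del*, against 7 lower and 1 higher, 4 were lower at the same median and at 2-fold and 3 with the filter at 5 FPKM. At the same total and at the same *Gapdh*, 9 were lower and 0 higher. Of the values past the fold as deposited, *Fosb* at Zt +6 changed sign at the same median (-0.013) and with the length trend removed (-0.021). *Ier2* over time in *Snord116del* changed sign at the same *Gapdh* (-0.38). Of the other values of single genes, 337 kept their call and 80 gained or lost it, whatever their sign. Values short of the fold as deposited changed sign too. At Zt +6 and the same median, *Egr1* went from 0.46 to -0.35, *Nr4a1* from 0.10 to -0.69 and *Dusp1* from 0.37 to -0.33. At Zt +16, each gene except *Fos* had settings on both sides of 0. With the peaks of the *Snord116del* NSC list limited to its upper quartile of fold, 0 of the 10 genes had a peak, against 2.

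Over all tested genes the number higher at Zt +6 was 5073 as deposited, 1548 at the same median, 2285 after quantile normalization, 1267 with the length trend removed and 8063 at the same *Gapdh*. Higher genes made up 86.6% of those past the fold as deposited, 38.1% at the same median, 56.8% at the same upper quartile, 51.9% after quantile normalization, 48.4% with the length trend removed and 97.6% at the same *Gapdh*. At Zt +16 they made up 98.9% as deposited and between 1.71% and 70.4% on the other scales, and over time in WT 35.7% as deposited, 53.1% at the same median and 1.71% at the same total. The cause of these shifts was not tested.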
